A study of Xenopus laevis with 9 samples.

Results

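The comparison set 3 arrays of tadpole tails collected 48 h after 3,5,3′-triiodothyronine (T3) was added to the water against 3 arrays of tails collected 48 h after the vehicle alone, and took these 6 of the study's 9 arrays by their titles. Xenopus laevis larvae of stage 54 (stage 51 to 54 in another label), a stage before the tail is lost, were kept 2 to a 500 ml glass container at 20 C in FETAX, a frog embryo medium. The treated group received 20 nM T3. Every array carried RNA of a pool of 3 whole tails, so an array is a pool and not an animal. Of 15491 probe sets, 8123 reached the array median on at least 3 of the 9 arrays and were tested. The other 3 arrays, tails taken after 6 h of T3, entered the fit for the estimate of the spread.

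Thyroid hormone drives amphibian metamorphosis. T3 binds nuclear receptors that sit on target genes with corepressors and exchange them for coactivators when the hormone arrives. In the tail the known late programme includes secreted proteases that break down matrix, loss of larval skin genes and death of larval muscle, and deiodinases set how much active hormone a tissue keeps.

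Levels are given as log2 intensity, on which 0 is the median of an array, and differences as log2 changes of T3 48 h against vehicle with the standard error (SE) of the fit. Values of 3 arrays are listed in the order array 1, 2, 3. A probe set was called when its adjusted p (limma, Benjamini-Hochberg over 8123 probe sets) was under 0.05. A named gene may have further tested probe sets without a call. The called were 1 of 3 for ppl.L and eif3a.L and 2 of 3 for myc.S, bzw1.L and bccip.L. They were 1 of 2 for itgb1.L, cnn3.L, klf6.L, rtn1.L, cdo1.L, atp2a2.S, clpp.L, smdt1.S, ppig.L, rrm1.L, txn2.L and XB5932119.L, among others. The labels name neither clutches nor paired arrays, and a p-value here reflects how far pools of a group lay apart, which may be technical.

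At 48 h, 892 probe sets were called, 11.0% of those tested, with 401 higher (4.94%) and 491 lower (6.04%). The median size was 1.74-fold among the rises and 1.7-fold among the falls. Changes of at least 2-fold numbered 270 (3.32%), 123 higher and 147 lower. When arrays were centred on the tested probe sets the balance turned, to 480 higher and 410 lower. Of the 401 rises, 33 passed the level filter only through the 3 T3 arrays, and 50 would not have passed it on the other 6 arrays, so a difference was built into their selection and their p-values are no support for it. Genes named below that belong to the 33 are ambp.L, anpep.L, cnn3.L, crym.S, dpp4.S, extl3.S, krt78.6.L, mmp9.2.L, ras-dva1.L, serpinb4.L, slc15a2.L and timp2.S, and mamdc2.L is among the 50. Of the 491 falls, 90 had a T3 mean under the array median. Among these, krt12.4.L, krt12.4.S, gatm.L, prodh.L, anxa9.L and il13ra2.S lay under it on every T3 48 h array. They passed the filter only through vehicle and 6 h arrays, so selection may have favoured a difference, which was not tested. Values of the groups did not overlap in 885 of the 892, against 2651 of all tested (32.6%). Separate groups were also a condition for naming the largest changes and the bright genes, so for them it is no added support.

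The response was unequal among the treated pools. T3 array 1 was the lowest of the 3 in 313 of the 401 rises and the highest in 350 of the 491 falls. The median rise was 0.573, 1.018 and 0.85 on arrays 1, 2 and 3, and the median fall was -0.57, -0.938 and -0.783. Leaving out T3 array 1 raised the number called to 1912. Leaving out T3 array 2 or 3 gave 291 or 285, and leaving out vehicle array 1, 2 or 3 gave 256, 305 or 376. In all 9 fits that each left out 1 array, 191 probe sets were called, 107 higher and 84 lower.

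**Figure D1:**
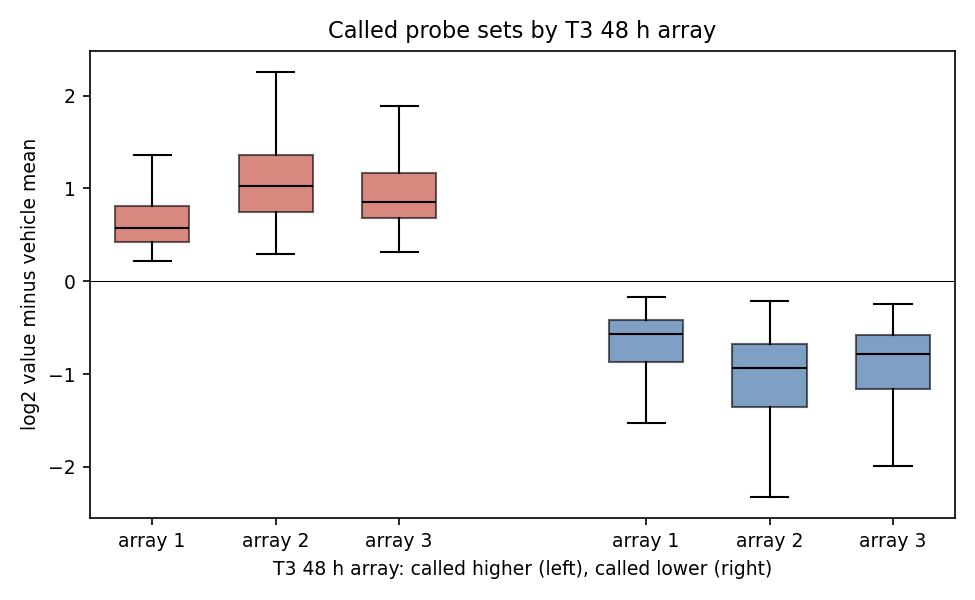
Box plot of the log2 value on each T3 48 h array minus the vehicle mean, for the 401 probe sets called higher (red) and the 491 called lower (blue); the line is the median, the box the quartiles, and the whiskers reach the last value within 1.5 box lengths. Array 1 lies nearest to 0 on both sides, with medians of 0.573 and -0.57.

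Tissue markers were checked first, because in whole tails fewer cells of a type and less RNA per cell cannot be told apart. Muscle markers (actin acta1, troponin tnnt3, myosin light chain mylpf, creatine kinase ckm) summed to 2760 to 2870 array medians in vehicle and 2690 to 3110 after T3, the brightest set, and the fit called 0 of 6 probe sets. Their number at an unadjusted p under 0.05 in the wider list of contractile genes was 3 higher and 5 lower of 54. Over all 8123 tested probe sets, 2450 were under 0.05 in either direction. The epidermal set summed to 188 to 242 in vehicle and 144 to 184 after T3, with 3 of 6 called lower. All 3 were keratin probe sets (krt12.4.L, krt12.4.S and krt19.L). The others, epcam.L, epcam.S and krt19.S, changed by -0.05, -0.27 and 0.01 and were not called. Notochord and cartilage markers gave 23.7 to 37.6 against 7.47 to 21.0, and 4 of 4 tested were called lower, while tbxt and shh lay under the array median on all 6 arrays. Blood cell markers summed to 272 to 338 and 297 to 489, and fibroblast markers to 376 to 514 and 373 to 497.

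The share called varied with brightness. Among probe sets with a mean log2 level under 2, 10.7% were called, then 13.0% from 2 to 4, 10.5% from 4 to 6 and 4.28% at 6 and over. Of 1325 bright probe sets, those at 16 times the array median or more (log2 of 4), 113 were called (8.53%), 53 higher and 60 lower, and 24 by at least 2-fold (1.81%). The split moved with the scaling, to 61 higher and 43 lower when arrays were centred on the tested probe sets and to 62 and 35 after quantile normalization. Without T3 array 1 the bright calls numbered 301, and without T3 array 2 or 3 they numbered 33 and 35. Omission of vehicle array 1, 2 or 3 left 34, 38 or 46, and omission of 6 h array 3 left 74.

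**Figure D2:**
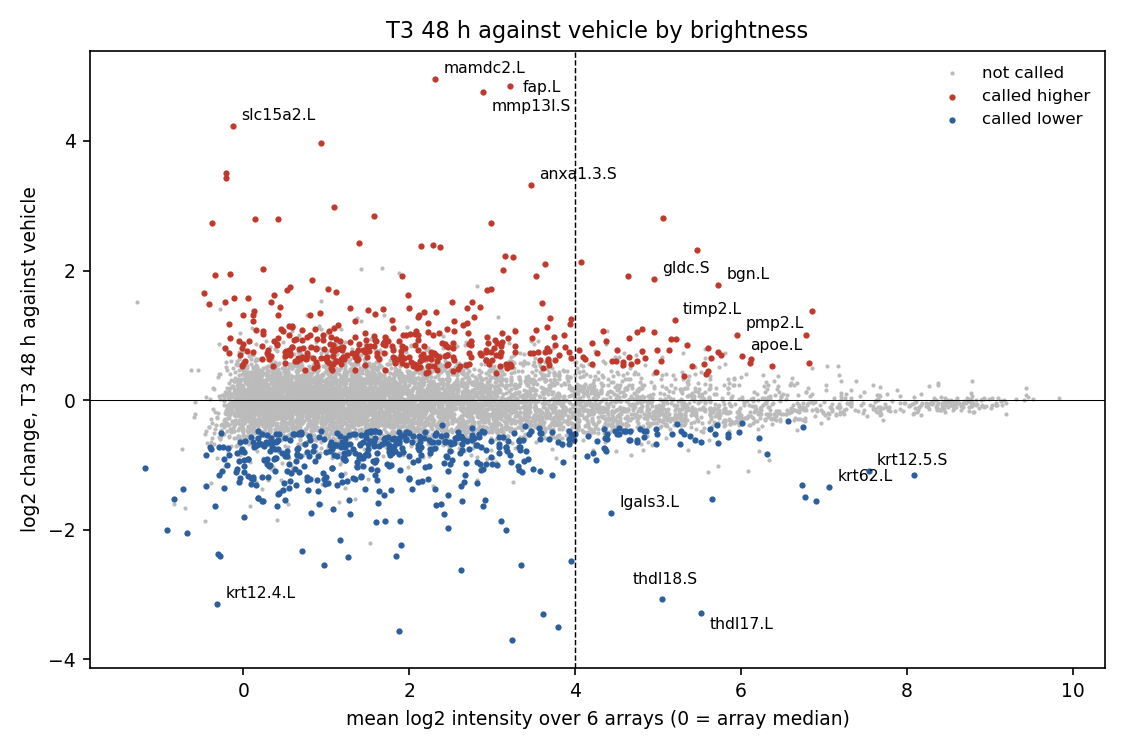
Each point is 1 of 8123 tested probe sets, by mean log2 intensity over the 6 arrays (x) and log2 change of T3 48 h against vehicle (y); red and blue mark the 401 called higher and 491 called lower, grey the rest, and the dashed line is the bright limit of 4. Changes above 3 lie left of that line, while thdl17.L and thdl18.S lie at about -3 among bright probe sets.

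Known target genes of the hormone were read as a check of the treatment. Of 10 tested probe sets of the T3 response list, 3 were called higher (fap.L, dio3.L and mmp11.L) and 2 lower (thdl17.L and thdl18.S). Dio3, the deiodinase that inactivates thyroid hormone, read 1.81, 1.78 and 1.29 in vehicle and 3.76, 4.47 and 4.85 after T3 (dio3.L, change 2.73, SE 0.27, adjusted p = 0.000748). Thibz, a leucine zipper factor induced by T3, stayed below the level filter but read -2.63, -2.88 and -2.78 in vehicle against -0.14, 2.69 and 1.62 after T3 (thibz.L, change 4.15, adjusted p = 0.00558 in the limma fit of all 15491 probe sets). In the same unfiltered fit crhbp.S, which encodes the binding protein of corticotropin-releasing hormone, rose by 3.79 (adjusted p = 0.0237) from -1.7, -1.69 and -2.09 to -0.21, 3.16 and 2.94. For each of the 3 genes every treated array lay above every vehicle array, and T3 array 1 was the lowest.

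Crym, a cytosolic T3-binding protein, rose by 1.31 (crym.S, SE 0.23, adjusted p = 0.00866). Crym.S passed the level filter only through the T3 arrays, so its p-value is no support for the rise. Slc3a2, the heavy chain of amino acid transporters, some of which also carry thyroid hormone, rose by 0.76 (slc3a2.S, adjusted p = 0.0332), a call lost without T3 array 2 or 3, T3 6 h array 3 or any vehicle array (adjusted p up to 0.1). Dio2, the activating deiodinase, rose by 1.82 on 1 of its 2 probe sets in the unfiltered fit (dio2.L, adjusted p = 0.0224) and had a change of -0.02 on the other. Retinoic acid receptor rarg.S and Wnt receptor fzd2.S did not pass, with changes of 0.05 and 0.43. Nor did klf9.L, a zinc finger factor induced by T3, at 0.44 (adjusted p = 0.273 in the unfiltered limma fit; klf9-b -0.03), or the receptor gene thra.L, at 0.21 (0.416), both below the level filter.

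Matrix-degrading enzymes held several of the largest rises. Of 22 tested probe sets for matrix metalloproteinases and other peptidases, 9 were called higher (40.9%, against 4.94% of all probe sets) and 1 lower, with a median change of 0.53. Of the 9 rises, 3 (anpep.L, dpp4.S and mmp9.2.L) passed the level filter only through the T3 arrays. Fap, a fibroblast surface serine protease, rose 28.8-fold, and mmp13l, a collagenase, 26.9-fold. Among the 10 called, 7 were called in all 9 fits without 1 array. The 7 include anpep.L, dpp4.S and mmp9.2.L, whose calls are no support because of the level filter. Without T3 array 1 the rises numbered 13, and they ranged from 7 to 9 in the other 8 fits. The list also held 4 probe sets of timp inhibitors, which were set apart after the values were seen; with them 11 of 26 were higher.

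Fap.L read 0.72, 0.84 and 0.79 in vehicle and 5.02, 6.19 and 5.68 after T3, a change of 4.85 (SE 0.26, adjusted p = 1.23e-05). Mmp13l.S read 1.19, 0.39 and -0.04 in vehicle and 4.44, 5.84 and 5.51 after T3 (4.75, SE 0.4, adjusted p = 0.000337). Both genes separated the groups by over 3 log2 units, with array 1 the lowest treated array. The other collagenase homeolog, mmp13l.L, went from a mean of 0.19 to 2.6 (2.42, adjusted p = 0.00212).

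Stromelysin-3, mmp11.L, a metalloproteinase known from T3-treated tadpole tissue, read 0.91, 0.62 and 1.31 in vehicle and 2.81, 3.5 and 3.68 after T3 (2.38, adjusted p = 0.000786). The gelatinase mmp9.2.L rose by 1.95 from a level under the array median, and its T3 values of 0.8, 0.75 and 0.89 lay close together. The cell-surface peptidases anpep.L and dpp4.S rose by 3.43 and 2.79. Anpep.L was highest on T3 array 1, at 2.02 against 0.84 and 1.66. A gelatinase of the same family, mmp2.S, rose by 0.71 (adjusted p = 0.0248). The membrane protease that activates it, mmp14.L, was already bright at 4.25, 4.14 and 4.25 and reached 4.82, 5.81 and 5.17 (1.05, adjusted p = 0.0154; 0.0557 at most without vehicle array 1 or 2, where the call was lost). Mmp28.L fell by 0.52.

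Some protease inhibitors also rose. Among 21 probe sets for protease inhibitors, 5 were called higher (23.8%). Of these, 3 (ambp.L, serpinb4.L and timp2.S) passed the level filter only through the T3 arrays. The call was kept in all 9 fits by 2 of the 5, timp2.L and timp2.S, and for timp2.S this is no support. Both homeologs of timp2, an inhibitor that also takes part in mmp2 activation, rose. The bright timp2.L read 4.54, 4.42 and 4.78 in vehicle and 5.46, 6.11 and 5.87 after T3 (1.23, SE 0.18, adjusted p = 0.00392), and the dimmer timp2.S rose by 1.7. Every treated array exceeded every vehicle array for both copies, but for timp2.S the level filter fixed this in advance, so it is no support there. The serpins serpinb4.L and serpind1.L rose by 1.51 and 0.78. The count was 2 without vehicle array 1, 3 without T3 array 3 or vehicle array 2 and 6 without T3 array 1.

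Ambp, the precursor of alpha-1-microglobulin and bikunin, a plasma protein made in liver, was the fifth of these calls. Its called probe set read -0.81, -1.35 and -1.01 in vehicle and 5.25, 0.89 and 2.6 after T3 (ambp.L, 3.97, SE 0.81, adjusted p = 0.0176). The treated arrays spanned over 4 log2 units, and array 1 was the highest. The other 2 tested probe sets of the gene changed by -0.21 and -0.16, and the call was lost without T3 array 3, vehicle array 1 or vehicle array 2 (adjusted p up to 0.0586). Below the level filter, a further ambp.L probe set read -2.35, -2.07 and -2.45 in vehicle and 1.46, -2.34 and -1.59 after T3. Another there changed by -0.2. The liver, pancreas and gut markers, which include these ambp.L probe sets, summed to 4.83 to 6.11 in vehicle and 6.34 to 46.5 after T3. Of them, fga, prss1, cpa1 and fabp2 lay under the array median on all 6 arrays. The fga probe sets were highest on T3 array 1, at -0.9, -1.51 and -0.88, and prss1, cpa1 and fabp2 were not. The part of these markers in the result was not tested.

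The matrix itself changed in both directions. Mamdc2, a secreted matrix protein, had the largest rise of all named genes that were called, from -0.84, 0.25 and 0.08 to 3.83, 5.58 and 4.97 (mamdc2.L, 4.96, SE 0.43, adjusted p = 0.000337). Biglycan, a small proteoglycan of connective tissue, was bright in vehicle at 4.82, 4.68 and 5.0 and rose to 6.26, 7.05 and 6.5 (bgn.L, 3.42-fold, adjusted p = 0.000786). Both genes kept the call in all 9 fits, and no treated array overlapped the vehicle arrays. Mamdc2.L would not have passed the level filter without the T3 48 h arrays, so its calls are no support for its rise. Hyaluronidase hyal2 rose on both homeologs, by 1.44 (hyal2.L) and 0.91 (hyal2.S). With the sulfation and chain-building genes chst13.L and extl3.S and the glypican gpc4.L, 6 of 26 probe sets for proteoglycans and hyaluronan were called higher (23.1%), 3 without T3 array 3, vehicle array 1 or vehicle array 2. Versican, vcan.L, fell by 0.69 (adjusted p = 0.0456), a call held in only 1 of the 9 fits.

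Fibronectin fn1.S, an adhesive glycoprotein, was called higher on 2 of its 4 tested probe sets, by 0.67 and 0.6. In contrast, 4 of 7 notochord and cartilage probe sets were called lower, with a list median of -1.28. Collagen II, col2a1.S, read 3.49, 3.46 and 2.95 in vehicle and 2.66, 0.71 and 1.24 after T3 (-1.76, adjusted p = 0.0272). Col9a1.L, of the collagen that coats cartilage fibrils, read 2.79, 3.13 and 2.56 against 2.24, 0.51 and 0.15 (-1.86, adjusted p = 0.0265). On both, T3 array 1 stood well above the other treated arrays. The cartilage glycoprotein cnmd.L fell by 1.28. None of these 4 calls was kept in all 9 fits: 4 remained without T3 array 1 and 3 without each 6 h array, against 1 without vehicle array 3 and 0 without T3 array 2, T3 array 3, vehicle array 1 or vehicle array 2. The fibrillar collagen probe sets that served as fibroblast markers (col1a1, col1a2, col3a1) had changes between -0.23 and 0.28 in the tested set, with adjusted p of 0.285 or more.

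Larval skin genes held several of the deepest falls. Keratins, the filament proteins of epidermis, gave 10 of 22 probe sets called lower (45.5%, against 6.04% of all) and 1 higher, with a median change of -0.89. The brightest were krt12.5.S, krt62.L and krt7.L, each above 7 in vehicle. Of the 11 keratin calls 6 were kept in all 9 fits, and 1 of the 6 is the rise of krt78.6.L, whose calls are no support. The falls numbered 5 without T3 array 2, vehicle array 1 or vehicle array 2 and 7 to 9 in the other fits.

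Krt12.5.S read 8.0, 8.01 and 8.28 in vehicle and 7.32, 6.98 and 6.68 after T3 (-1.1, SE 0.15, adjusted p = 0.0033). Krt62.L read 7.74, 7.8 and 7.63 against 6.96, 5.97 and 6.23 (-1.34, adjusted p = 0.005). Krt7.L fell by 1.31 from 7.46, 7.35 and 7.35 to 6.57, 5.6 and 6.06. All 3 were among the brightest falls on the array, and the treated arrays lay below every vehicle array. The dim type I keratin krt12.4 fell on both homeologs, by 3.15 (krt12.4.L) and 2.38 (krt12.4.S), to levels of -1.2 or below on each treated array. Both copies passed the level filter only through vehicle and 6 h arrays. The related krt12.2 fell by 2.24 (krt12.2.L) and 2.01 (krt12.2.S).

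One keratin moved the other way. Krt78.6.L rose 11.4-fold, from -2.19, -1.57 and -2.14 to 1.95, 2.12 and 0.57 (3.51, adjusted p = 0.000912), and kept the call in all 9 fits. It passed the level filter only through the T3 arrays, so these calls are no support for the rise. Krt17.S and krt57.L had positive changes of 0.87 and 0.86 that did not pass (adjusted p of 0.13 and 0.198).

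Thdl17 and thdl18, skin genes named for their fall under thyroid hormone, fell 9.7-fold and 8.4-fold. Thdl17.L read 7.25, 7.0 and 7.23 in vehicle and 5.97, 2.79 and 2.88 after T3 (-3.28, SE 0.68, adjusted p = 0.018). Thdl18.S read 6.56, 6.37 and 6.81 against 5.62, 2.43 and 2.49 (-3.07, SE 0.69, adjusted p = 0.0244). On both genes T3 array 1 was about 1 log2 unit under vehicle while arrays 2 and 3 were about 4 under. Each call was lost without T3 array 2 or 3 or any vehicle array (adjusted p up to 0.0655 and 0.0874). LOC100126633, a locus with no name, had the same shape, at 4.1, 0.34 and 1.68 after T3 against a vehicle mean of 5.53. LOC398308 fell by 3.56 and kept its call in all 9 fits.

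Single secretory and lectin genes of the skin fell. Fucolectin.S, a fucose-binding lectin, read 5.3, 5.34 and 4.94 in vehicle and 3.6, 2.25 and 2.25 after T3 (-2.49, adjusted p = 0.00338). Galectin-3, lgals3.L, read 5.38, 5.32 and 5.21 against 4.0, 3.08 and 3.57 (-1.75, adjusted p = 0.00101). The groups were apart on both, and both calls held in all 9 fits. Of 23 probe sets of the skin secretory list 5 were called lower (21.7%), among them the mucin-like otogl2.L (-2.33) and the disulfide isomerase relative agr2.S (-1.24). The list's median of 0.01 lay near that of all probe sets, -0.046, and its falls numbered 3 without T3 array 2, T3 array 3, vehicle array 1 or vehicle array 3.

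Of 47 probe sets for desmosomes, tight junctions and cadherins, 7 were called lower (14.9%). They included the desmosomal plaque proteins pkp3.S (-1.16), ppl.L (-0.88, on 1 of its 3 tested probe sets) and pkp2.L (-0.83). The desmosomal cadherin dsc3.S (-0.7) was also among them. Pkp3.S went from 4.44, 4.25 and 4.2 to 3.4, 2.84 and 3.16 and was called in all 9 fits (adjusted p = 0.0033). The gap junction gene gjb2.L rose by 1.52 (adjusted p = 0.0404), a call held in 1 of the 9 fits. The number of falls went to 10 without T3 array 1, and to 1 to 4 without any other 48 h array. Villin-like vill, an actin-binding protein of epithelia, fell on both homeologs, by 1.64 (vill.S) and 0.95 (vill.L), and the epidermal uroplakin upk1b fell by 1.51 and 1.08. The p53 inhibitor ppp1r13l.L, which is expressed in epithelia, fell by 1.86 (adjusted p = 0.00437).

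**Figure D3:**
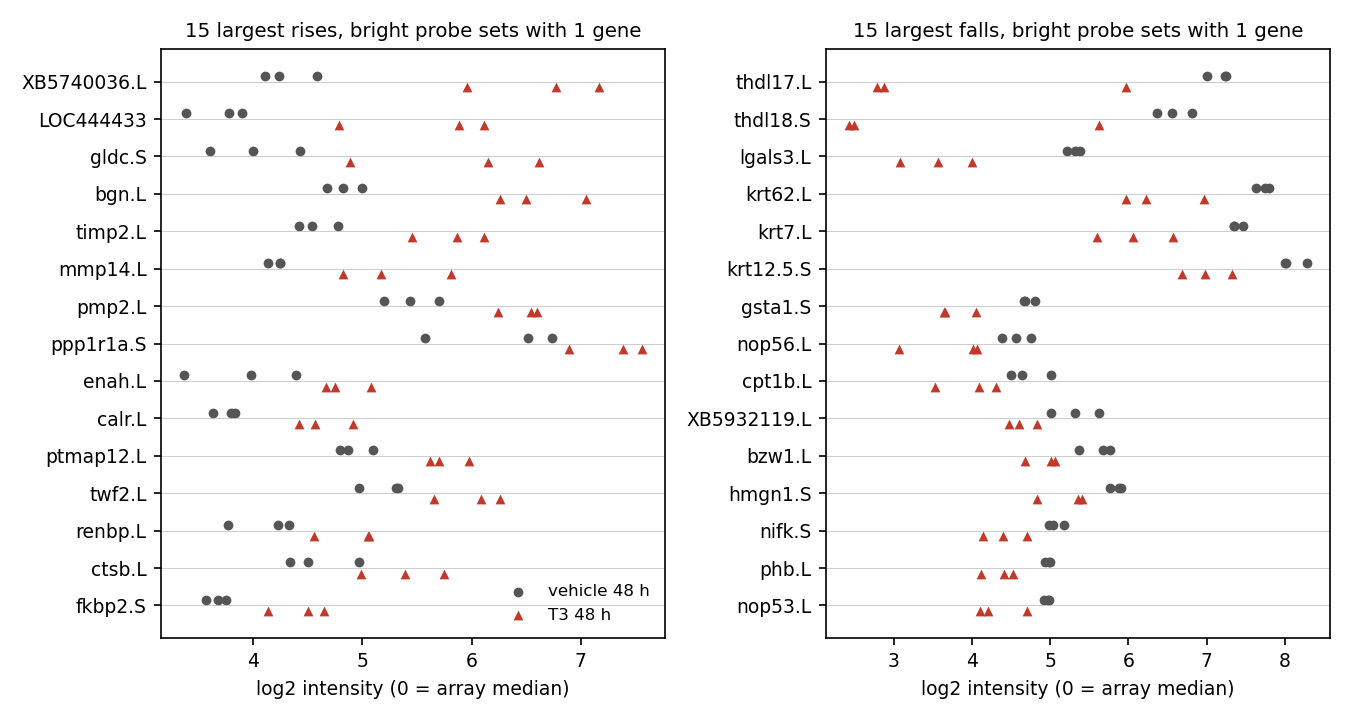
Log2 intensity (x, 0 is the array median) of each vehicle array (grey circles) and each T3 48 h array (red triangles) for the 15 largest rises (left) and the 15 largest falls (right) among called bright probe sets with 1 gene. In thdl17.L and thdl18.S 1 treated array, array 1, stays near the vehicle arrays at 5.97 and 5.62.

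More than 30% of the probe sets for genes that build ribosomes were called lower, each by a small amount. Ribosome assembly takes place largely in the nucleolus, where RNA polymerase I transcribes ribosomal RNA and a large set of factors cuts, modifies and folds it around ribosomal proteins. Of 81 tested probe sets for such factors, 28 were called lower (34.6%, against 6.04% of all), covering 25 genes with changes of -0.47 to -0.91. A negative estimate was found in 79 of 81 and a positive one in 2, against 44.4% positive over all tested probe sets. The list median was -0.47, against -0.046 over all tested probe sets. At an unadjusted p under 0.05 there were 56 lower, beside 2450 of all 8123 in either direction.

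The falls came from several steps of the pathway. Polymerase I subunits polr1e.L, polr1f.L and polr1c.L fell by 0.66, 0.72 and 0.63. The pseudouridine synthase dkc1.L read 3.6, 4.16 and 3.9 in vehicle and 3.17, 2.65 and 3.1 after T3 (-0.91, SE 0.18, adjusted p = 0.0151), with every treated array below the vehicle arrays. The box C/D particle protein nop56.L, among the brightest of the set, read 4.38, 4.57 and 4.76 against 4.06, 3.07 and 4.01 (-0.86, adjusted p = 0.0476). Of the small-subunit factors, bysl.S, tsr2.L, rrp9.S and rrp7a.S fell by 0.8 to 0.91. The large-subunit factors pes1.S, bop1.S and brix1.S fell by 0.63, 0.69 and 0.78, as did nop53.L (-0.62), the export adaptor nmd3.L (-0.62) and the nucleolar nifk.S (-0.65).

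The ribosome biogenesis calls sat near the threshold. None of the 28 was called in all 9 fits. The count was 47 without T3 array 1, 21 to 26 without a 6 h array, 4 without T3 array 3 or any 1 vehicle array, and 1 without T3 array 2. Centring and quantile normalization left the list median at -0.45 and -0.46.

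Proteins of the finished ribosome gave smaller values. Of 88 probe sets for cytosolic ribosomal proteins limma called 0, with a median change of -0.09 and a range of -0.3 to 0.04. At an unadjusted p under 0.05, 5 were lower and 0 higher, beside 2450 of all 8123 in either direction. Only 5 of the 88 had a positive estimate. These transcripts are bright: rps19.S read 9.21, 9.18 and 9.18 in vehicle and 9.18, 9.05 and 9.1 after T3. At levels of 6 and over the median size of a change, called or not, was 0.113, and the median with its sign was -0.08. The list median of -0.09 lay near that value and was -0.03 after quantile normalization. The signs are therefore not read as a shift particular to these genes. Myc, the transcription factor known for driving growth and nucleolar genes, was called lower on 4 probe sets, 2 a homeolog. For myc.S these were 2 of 3 tested, and whether a probe set binds both copies was not tested. On the brightest, myc.S read 3.68, 3.12 and 3.66 in vehicle and 2.9, 2.05 and 2.56 after T3 (-0.98, SE 0.24, adjusted p = 0.0309), with no overlap. Myc.L fell by 0.63 and 0.65. No myc probe set kept its call in all 9 fits; the call of this one was lost without T3 array 2 or 3 or vehicle array 1 or 3 (adjusted p up to 0.102).

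Translation and mitochondrial genes had negative medians. Of 121 probe sets for translation factors and tRNA synthetases, 8 were called lower (6.61%, near the background of 6.04%) and 2 higher, and the median was -0.22. Those that fell included the ribosome anti-association factor eif6.S (-0.67), eif3a.L (-0.53) and kars1.L (-0.53). Tryptophanyl-tRNA synthetase wars1.S rose by 0.88 (adjusted p = 0.0171). Nat1, whose listed synonyms are EIF4G2 and DAP5 and which stands for an initiation factor of cap-independent translation, rose by 0.59 (adjusted p = 0.0182), and eif4g2.S by 0.43. By that shared name and their places on chromosomes 4L and 4S, nat1 and eif4g2.S may be homeologs of a single gene. The falls numbered 30 without T3 array 1 and 6 or fewer in the other 8 fits.

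Mitochondrial ribosome and import genes gave 15 of 93 called lower (16.1%), with a median of -0.33. Of 39 probe sets for mitochondrial ribosomal proteins 9 were called lower and 1 had a positive estimate, with a median of -0.41. Mrpl41 fell on both homeologs, by 0.72 (mrpl41.S) and 0.61 (mrpl41.L), and the matrix protease clpp.L by 0.67. Prohibitin phb.L, a bright inner-membrane scaffold gene, read 5.0, 4.98 and 4.93 in vehicle and 4.41, 4.12 and 4.53 after T3 (-0.62, adjusted p = 0.0193), the treated arrays all below. Of 75 respiratory chain probe sets 4 were called lower (5.33%, below the 6.04% of all), all subunits of complex I at -0.33 to -0.43. Of the 75 estimates 72 were negative, against 44.4% positive over all tested probe sets. The median was -0.26, and -0.18 after quantile normalization. Over all tested probe sets the median was -0.133 at levels of 4 to 6 and -0.08 at 6 and over, and the part of brightness was not tested. None of the mitochondrial calls held in all 9 fits. Without T3 array 1 the falls numbered 31 for ribosome and import and 17 for the respiratory chain, and without T3 array 2 or vehicle array 2 both were 0.

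**Figure D4:**
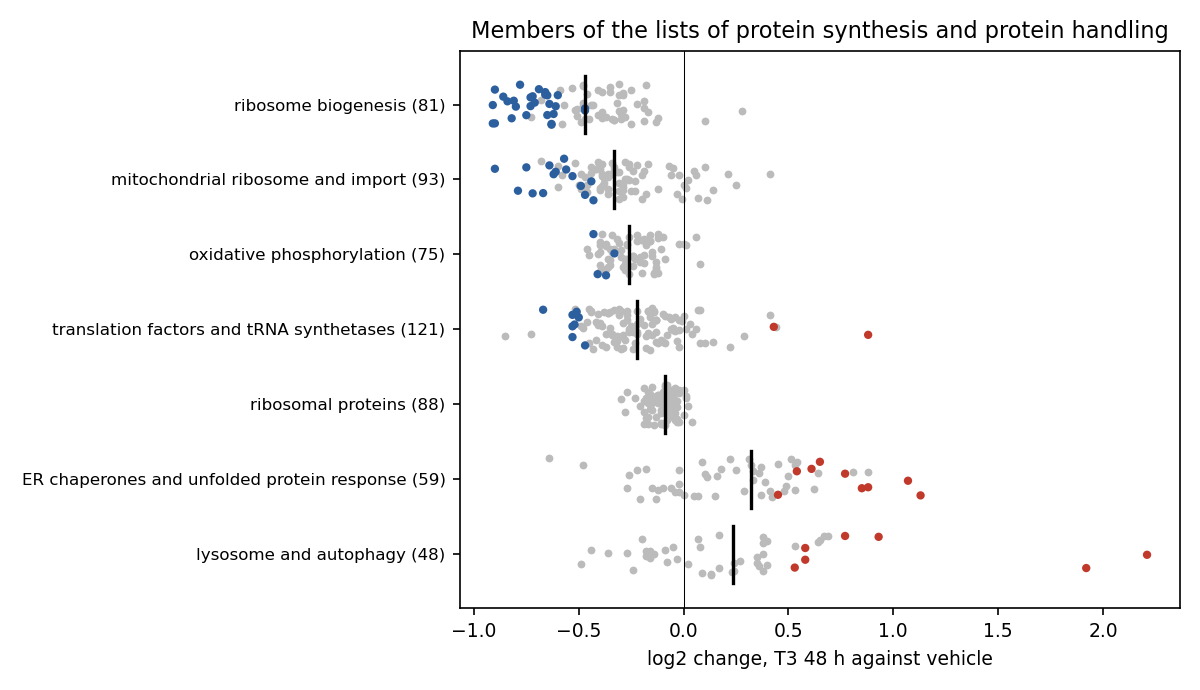
Each point is a tested probe set of 7 lists, by its log2 change of T3 48 h against vehicle; blue and red are called lower and higher, grey not called, the black bar is the list median and the number in brackets the probe sets tested. Medians run from -0.47 for ribosome biogenesis to 0.32 for ER chaperones, with ribosomal proteins at -0.09.

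Some genes of cell division also fell. Of 58 probe sets for the cell cycle and DNA replication, 8 were called lower (13.8%), among them the condensins smc4.L (-0.89) and smc2.L (-0.62), ribonucleotide reductase rrm1.L (-0.69), cyclin ccnb1.2.L (-0.67) and the spindle factor tpx2.S (-0.51). No call of this list was kept in all 9 fits: the falls numbered 16 without T3 array 1, 3 to 7 without a 6 h array or T3 array 3, 1 without vehicle array 3 and 0 without T3 array 2, vehicle array 1 or vehicle array 2. Nucleotide synthesis gave 4 of 26 lower (15.4%). The p53-inducible reductase subunit rrm2b.S read 3.25, 3.18 and 2.97 in vehicle and 1.5, 1.13 and 1.91 after T3 (-1.62, adjusted p = 0.0033). The purine salvage enzyme hprt1.L fell by 1.21, and both rrm2b.S and hprt1.L kept the call in all 9 fits. Stathmin stmn1.L, a microtubule-destabilising protein of dividing and nerve cells, fell by 1.59 (adjusted p = 0.00771), also in all 9 fits.

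Some genes of protein folding in the secretory pathway rose. Of 59 probe sets for endoplasmic reticulum (ER) chaperones and the unfolded protein response, 9 were called higher (15.3%, against 4.94%), and the median was 0.32. At an unadjusted p under 0.05, 26 were higher, beside 2450 of all 8123 in either direction. The chaperones were calreticulin, calnexin, the ER form of heat shock protein 90 and disulfide isomerases. Calr.L read 3.84, 3.8 and 3.63 in vehicle and 4.42, 4.57 and 4.92 after T3 (0.88, SE 0.15, adjusted p = 0.00792) and was the 1 call of 9 that held in all 9 fits. Canx.L rose by 0.85 and 0.61 on 2 of its 3 tested probe sets, hsp90b1.L by 1.13, manf.S by 1.07 and the prolyl isomerase fkbp2.S by 0.77. Without T3 array 1 the rises numbered 20, without a 6 h array 8, and without T3 array 2 or 3 or vehicle array 1 or 2 there was 1, with 3 without vehicle array 3.

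Vesicle traffic lay near the background. Of 189 probe sets, 13 were called higher (6.88%, near the 4.94% of all) and 5 lower (2.65%, below the 6.04% of all), and the median was 0.12. Clathrin light chain clta rose on both homeologs, by 0.54 (clta.S) and 0.52 (clta.L), the adaptor subunit ap3d1.S by 0.76 and 0.68, and the cargo receptor tmed7.L by 0.75. The falls included the secretory granule GTPases rab27a.L and rab3d.L, at -0.87 and -0.86, the 2 calls of the list that held in all 9 fits. The rises numbered 47 without T3 array 1, 7 to 9 without a 6 h array and 0 to 3 without any other 48 h array. Signal peptidase subunit sec11a.L and glucosidase subunit prkcsh.L rose by 0.56 and 0.66, the 2 rises among 58 probe sets of ER translocation and N-glycosylation, a share of 3.45% that lies below the 4.94% of all.

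A share of the lysosomal genes rose. Of 48 probe sets, 7 were called higher (14.6%), with a median of 0.23. Lysosomal beta-galactosidase glb1.L read 2.18, 1.87 and 2.39 in vehicle and 3.89, 4.61 and 4.57 after T3 (2.21, SE 0.22, adjusted p = 0.000748). Atg16l1.L, which helps to form autophagosomes, read 2.39, 2.92 and 2.38 against 3.82, 5.11 and 4.54 (1.92, adjusted p = 0.00464). Both probe sets had no overlap and held in all 9 fits, but only 1 of the 4 tested probe sets of atg16l1.L was called higher. The cathepsin ctsb rose on both homeologs, by 0.77 (ctsb.L) and 0.58 (ctsb.S), the latter from a vehicle level above 6, and the legumain lgmn.L by 0.58. These bright calls were weaker, lost in 7 and 8 of the 9 fits for the cathepsin copies and in 4 for lgmn.L. For the list, the rises numbered 18 without T3 array 1 and 2 to 5 in the other 8 fits.

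The proton pump that acidifies lysosomes, the V-ATPase, had small positive changes. All 23 tested probe sets of its subunits had a positive estimate, against 44.4% of all tested, with a median of 0.37. Of them, 6 were called higher, from atp6v0c.L at 0.4 to atp6v0b.L at 0.84. On the bright probe set atp6v0c.L read 5.4, 5.26 and 5.49 in vehicle and 5.87, 5.68 and 5.81 after T3 (adjusted p = 0.0344). None of the 6 calls held in all 9 fits, and without T3 array 3, vehicle array 1 or vehicle array 2 the list of pumps held 0 rises, against 15 without T3 array 1. The sodium pump beta subunit atp1b2.L read 2.58, 2.31 and 2.43 against 0.81, 1.29 and 0.8 (-1.47, adjusted p = 0.00175; called in all 9 fits), and the proton-potassium pump atp12a.L fell by 2.41 (adjusted p = 0.0193). The proteasome, the other main route of protein breakdown, had a median of -0.17 over 60 probe sets, with psmd10.L (-0.85) and psmb9.S (-0.73) lower.

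**Figure D5:**
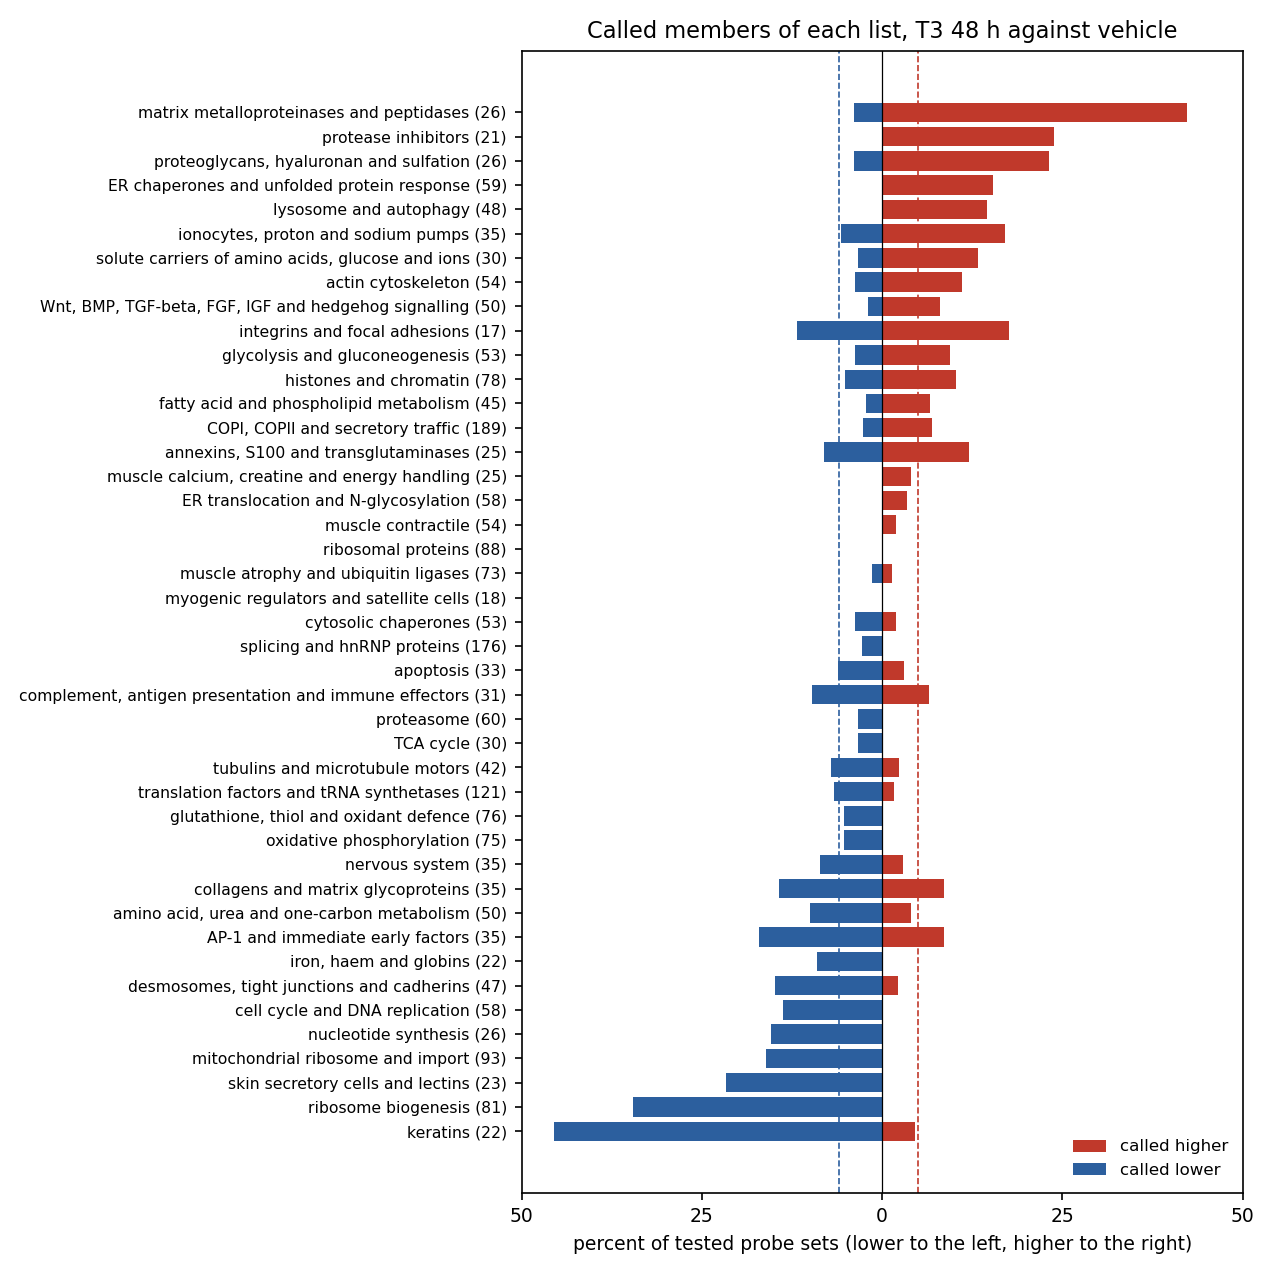
Percent of tested probe sets called higher (red, right) or lower (blue, left) at T3 48 h in each list with at least 15 tested probe sets (number in brackets); dashed lines mark the shares over all 8123, 4.94% and 6.04%. The widest bars are the list of matrix proteases, which here includes timp inhibitors, at 42.3% on the right and keratins at 45.5% and ribosome biogenesis at 34.6% on the left.

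Transporters and metabolic enzymes included some large single changes. Slc15a2, a proton-coupled peptide transporter, read -2.17, -2.3 and -2.26 in vehicle and 2.69, 1.4 and 1.87 after T3 (slc15a2.L, 18.8-fold, SE 0.27 on the log2 change of 4.23, adjusted p = 4.24e-05), and T3 array 1 was the highest. Slc15a2.L passed the level filter only through the T3 arrays, so its p-value is no support for the rise. The zinc transporter slc39a7.L rose by 1.11 (adjusted p = 0.000786) and the monocarboxylate carrier slc16a6.L by 0.93. Of 30 solute carrier probe sets 4 were called higher (13.3%) and 1 lower.

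Of the glucose-releasing enzymes pck1.L and g6pc1.3.L were called higher. Pck1.L, which commits oxaloacetate to glucose, read 1.69, 2.55 and 2.04 in vehicle and 4.49, 2.97 and 3.91 after T3 (1.7, adjusted p = 0.02; lost in 3 of 9 fits, up to 0.0767). G6pc1.3.L, which releases free glucose, read 1.44, 1.32 and 1.1 against 2.89, 2.15 and 3.07 (1.42, adjusted p = 0.00579; called in all 9). For both, the treated arrays lay above all vehicle arrays, and array 2 was the lowest. The liver, pancreas and gut marker sum, 4.83 to 6.11 in vehicle and 6.34 to 46.5 after T3, moved with them and with slc15a2.L and anpep.L through ambp.L, which was also lowest on array 2, and its part in these results was not tested. Hexokinase hk1.L and the regulator pfkfb3.S fell by 1.25 and 1.23, while pfkfb4.S rose by 0.73 on each of 2 probe sets. Over the 53 probe sets of glycolysis and gluconeogenesis, 5 were called higher (9.43%) and 2 lower, with a median of -0.16, and the rises numbered 1 to 4 in the 8 fits that kept T3 array 1.

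Nitrogen metabolism showed arginase arg1.L, a urea cycle enzyme, at 1.94, 1.97 and 2.47 in vehicle and 3.34, 4.15 and 4.03 after T3 (1.71, SE 0.29, adjusted p = 0.00846). The tyrosine-degrading hpd.L rose by 0.76, and both rises held in all 9 fits. Gldc.S, of the glycine cleavage system, rose 3.66-fold from 3.61, 4.0 and 4.43 to 4.89, 6.62 and 6.15 (adjusted p = 0.0178), and its call was lost without T3 array 2 or 3 or vehicle array 1 or 2 (adjusted p up to 0.0693). Creatine synthesis fell at both steps, gatm.L by 1.36 (called in all 9 fits) and the bright gamt.L from 5.39, 5.77 and 5.85 to 5.19, 5.25 and 4.89 (-0.56, adjusted p = 0.0386; held in 3 of 9). The proline, cysteine and tyrosine catabolic genes prodh.L, cdo1.L and fah.L fell by 1.11, 0.97 and 0.8. Gldc.S is on none of the lists. Of the 50 probe sets listed for amino acid, urea and one-carbon metabolism, 2 were called higher (4.0%, below the 4.94% of all) and 5 lower (10.0%, against 6.04%).

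Oxidant defence gave 4 falls of 76 probe sets (5.26%, below the background): the glutathione transferases gstp1.L (-1.56) and gsta1.S (-0.93), the secreted peroxidase gpx3.L (-0.96) and the mitochondrial thioredoxin txn2.L (-0.62). In lipid metabolism the mitochondrial fatty acid carrier enzyme cpt1b.L fell by 0.74 (adjusted p = 0.0464; called in 1 fit of 9), and elovl7.S and cers3.L, which make long-chain fatty acids and skin ceramides, rose by 0.93 and 0.67. Apolipoprotein E, a bright lipid carrier, read 5.73, 5.72 and 5.57 in vehicle and 6.21, 6.3 and 6.53 after T3 (apoe.L, 0.68, SE 0.11, adjusted p = 0.00792; called in all 9). The haem synthesis enzyme urod.L fell by 0.68 and 0.47 on 2 probe sets.

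Some chromatin genes, including genes of corepressors and a coactivator, were among the rises. Ezh2, the histone methyltransferase of Polycomb complexes, read 1.46, 1.69 and 1.36 in vehicle and 2.73, 2.92 and 2.93 after T3 (ezh2.L, 1.36, SE 0.14, adjusted p = 0.000748), with the treated arrays close together. Corepressor ncor1.S rose by 0.79 and 0.77 on 2 probe sets and coactivator ncoa3.S by 0.81. Histone deacetylase hdac1.S rose by 0.58 on 1 of its 2 tested probe sets. The acidic nuclear proteins anp32b.L (-1.08 and -1.06) and anp32c.S (-0.86) and the nucleosome-binding hmgn1.S (-0.65) fell. Across 78 probe sets 8 were called higher (10.3%) and 4 lower (5.13%), and ezh2.L and 1 of the ncor1.S probe sets kept the call in all 9 fits. The rises numbered 14 without T3 array 1 and 2 to 5 without any other 48 h array.

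Transcription and signalling genes moved singly. Klf2, a zinc finger factor of endothelium and other cells, fell on both its probe sets, by 2.55 and 2.16, but vehicle itself varied, at 2.0, 3.82 and 0.93 against 0.01, 0.0 and -0.91 after T3 (klf2.S, adjusted p = 0.0247; lost without T3 array 2 or 3 or vehicle array 1, up to 0.086). Sgk1.L, a kinase induced by corticosteroids, klf6.L and the bright cebpd.S, both stress-responsive factors, rose by 0.84, 0.7 and 0.65. Cebpd.S had a 6 h change of 0.79 (adjusted p = 0.0588). BMP antagonist grem1.L, Wnt antagonist dkk2.L and receptors tgfbr1.S and acvr1.L rose by 0.82, 0.83, 0.77 and 0.64, and Wnt antagonist sfrp2.S fell by 0.98. The call of acvr1.L (adjusted p = 0.0489) was lost in each of the 9 fits without 1 array. Sfrp2.S was already called lower at 6 h (-1.31, adjusted p = 0.0432), and its 48 h call held in 5 of the 9 fits. The list held 4 rises among 50 signalling probe sets (8.0%, against 4.94% of all), 0 to 3 without any 1 array other than T3 array 1.

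Muscle genes gave few calls. Over all tested probe sets, 4.94% were called higher and 6.04% lower. Of 54 contractile probe sets limma called 1 higher (1.85%), pdlim4.L (0.66), and 0 lower, with a median of 0.04. Of 25 for calcium and energy handling it called 1 higher (4.0%), the calcium pump atp2a2.S (0.85), and 0 lower. Some muscle genes are very bright, such as mylpf.L at a vehicle mean of 9.43. At levels of 6 and over only 4.28% of all tested were called, and the part of brightness was not tested. Among 18 probe sets for myogenic regulators 0 were called. At an unadjusted p under 0.05, 2 were lower and 0 higher, beside 2450 of all 8123 in either direction. Ubiquitin ligases and conjugating enzymes, linked to muscle atrophy in mammals, gave 1 rise and 1 fall among 73 (1.37% each, below the shares of all).

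Some actin-binding genes rose. Of 54 probe sets 6 were called higher (11.1%, against 4.94% of all) and 2 lower (3.7%, against 6.04%). The falls, vill.S (-1.64) and vill.L (-0.95), were the only calls of the list kept in all 9 fits. The rises were the calponins cnn2.S (1.04), cnn2.L (0.84) and cnn3.L (0.8), coactosin cotl1.L (0.82), destrin dstn.S (0.7) and the bright non-muscle myosin myh9.L. Cnn3.L passed the level filter only through the T3 arrays, so its p-value is no support. Myh9.L read 4.23, 4.24 and 4.49 in vehicle and 4.63, 5.21 and 5.13 after T3 (0.67, adjusted p = 0.0321). Enah.L and twf2.L, bright actin regulators, rose by 0.92 and 0.8. Twf2.L also had a 6 h change of 0.8 (adjusted p = 0.129). The rises of the list did not survive every omission. They numbered 13 without T3 array 1, 5 without a 6 h array, 0 without T3 array 2 or 3 or vehicle array 1 or 2, and 3 without vehicle array 3. Of 17 probe sets for integrins and focal adhesions, 3 were called higher (17.6%, against 4.94% of all) and 2 lower (11.8%, against 6.04%). Integrin beta 1, the shared chain of matrix receptors, rose on both homeologs (itgb1.L 0.73, itgb1.S 0.65), and itgb5.L rose by 1.39. The rises numbered 0 without T3 array 2 or any 1 vehicle array. The falls were itgbl1.L (-1.38, called in all 9 fits) and itgb1bp2.L (-1.3, called in 7 of 9).

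Annexin A1, a calcium-dependent membrane protein with anti-inflammatory roles in mammals, read 1.61, 1.66 and 2.14 in vehicle and 4.54, 5.92 and 4.93 after T3 (anxa1.3.S, 10.0-fold, adjusted p = 0.00141). Transglutaminase 2, a protein cross-linker, read 0.85, 1.34 and 1.37 against 3.26, 3.86 and 3.56 (tgm2.S, 2.37, adjusted p = 0.000337). Mfge8.S, which bridges dying cells to phagocytes, read 1.85, 2.25 and 2.28 against 3.73, 4.53 and 4.14 (2.01, adjusted p = 0.000786). These 3 genes held in all 9 fits with the groups far apart. Anxa9.L fell by 1.29.

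Nerve and immune genes were mixed. Gap43.S, of growing nerve endings, rose by 1.41 (adjusted p = 0.00212), but its homeolog gap43.L had a change of 0.04. The synaptic and neuronal genes syt1.L, tubb3.L and rtn1.L fell by 1.08, 0.86 and 0.75, with nerve markers summing to 69.3 to 83.2 in vehicle and 74.5 to 89.6 after T3. Pmp2.L, a lipid-binding protein known from myelin, was bright and rose from 5.44, 5.2 and 5.7 to 6.24, 6.54 and 6.6 (1.01, SE 0.16, adjusted p = 0.00565; called in all 9 fits), without overlap. Tetraspanin cd37, of leukocytes, rose on both homeologs by 0.68 (cd37.S) and 0.52 (cd37.L), beside a leukocyte marker sum of 6.15 to 9.07 in vehicle and 7.45 to 12.0 after T3, whose part was not tested. Cytokine receptor il13ra2.S fell by 1.56 and complement c1s.L by 0.77. Programmed cell death genes showed pdcd4, a translation inhibitor, lower on both homeologs (-0.81 and -0.73) and bnip3.S, of mitophagy, higher by 0.6.

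Bright genes outside all 53 lists were read separately, since families alone would miss them. XB5740036.L, a locus without a descriptive name, had the largest bright rise with a gene, from 4.11, 4.24 and 4.59 to 5.96, 7.17 and 6.77 (5.01-fold, SE 0.31 on the log2 change of 2.32, adjusted p = 0.00281). LOC444433 rose 3.75-fold, from 3.9, 3.78 and 3.39 to 4.79, 6.11 and 5.89 (adjusted p = 0.00792). Both held in all 9 fits, with T3 array 1 the lowest of the treated arrays. Their groups did not overlap, which was a condition of their choice. Ptmap12.L, named after prothymosin alpha, rose by 0.85 from 4.8, 5.1 and 4.87 to 5.7, 5.98 and 5.62 (adjusted p = 0.00579).

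The phosphatase-1 inhibitor ppp1r1a.S was the brightest named rise among these, at 5.57, 6.52 and 6.74 in vehicle and 6.89, 7.56 and 7.39 after T3 (1.0, adjusted p = 0.0391). Its groups came within 0.15 log2 units of each other, and the call was held without T3 array 1, and without vehicle array 3, of the 9 omissions (adjusted p up to 0.131). The sugar epimerase renbp.L, the leukocyte actin protein lsp1.S, the endosomal WASH subunit washc3.L and ppdpf.S rose by 0.78, 0.61, 0.6 and 0.55. Each of these 4 calls was lost without at least 4 of the 48 h arrays, at adjusted p up to 0.148.

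Among bright falls, chaperone clusterin, clu.L, read 6.48, 6.12 and 6.08 in vehicle and 5.8, 5.68 and 5.7 after T3 (-0.5, adjusted p = 0.0295). Mitochondrial genes among them were the pyruvate carrier mpc1.S at -0.47, the calcium uniporter regulator smdt1.S at -0.48 and ketone enzyme acat1.S at -0.6. Smdt1.S went from 5.6, 5.53 and 5.41 to 5.14, 4.93 and 5.04. Purine enzyme adss2.L (-0.48), bccip.L (-0.52), cyclophilin ppig.L (-0.53), peptidase npepl1.S (-0.53), the nucleotide hydrolase hint1.S (-0.53), phosphatase ptp4a2.S (-0.57), adducin add3.L (-0.57) and bzw1.L (-0.68) also fell, as did XB5932119.L (-0.68), a locus without a descriptive name. All were under 1.7-fold, and every call named in this paragraph was lost in 3 or more of the 9 fits (adjusted p up to 0.137).

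Of the 113 bright calls, 27 carried no single gene in the platform's annotation, 15 higher and 12 lower, and they made up 10 of the 24 bright changes of at least 2-fold. The one with the smallest p in the table, chosen after its values were seen, read 3.61, 3.55 and 3.82 in vehicle and 6.27, 6.64 and 6.49 after T3 (2.81, SE 0.13, adjusted p = 3.86e-06), with array 1 only slightly below the other treated arrays. The largest fall among them went from 7.75, 7.65 and 7.64 to 6.73, 5.51 and 6.13 (-1.56, adjusted p = 0.00513).

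Xenopus laevis carries .L and .S copies of many genes, called homeologs, and a probe set may bind both. Among 572 genes with both copies tested, 19 had both called, 10 higher and 9 lower, each in the same direction, and 85 had exactly 1 called. The 9 lower pairs were krt12.4, krt12.2, ag1, upk1b, vill, tmem248, pdcd4, myc and mrpl41, and the higher pairs were mmp13l, hyal2, timp2, cnn2, ctsb, itgb1, marcksl1, clta, cd37 and tspan31. Copies were matched by symbol, so nat1 and eif4g2.S were not counted as a pair. Cross-binding between copies was not tested.

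Few of the probe sets called at 48 h were called at 6 h. The median 6 h change was 0.097 among the 401 rises and -0.045 among the 491 falls, 2 and 4 of them were called at 6 h (18 of all tested, 0.222%), and 278 and 347 differed between 48 h and 6 h of T3 (1578 of all, 19.4%). The 401 and 491 were chosen on the T3 48 h arrays, which the comparison between the times reuses. A share above that of all is therefore largely built in. Both times are set against the same vehicle arrays. The 6 h tails had also spent less time in the containers, so hormone time and container time cannot be told apart there.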

How the data were processed

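RNA from pools of tails was hybridised to Affymetrix Xenopus laevis arrays, 3 arrays a group. The deposited intensities are linear values from GCRMA, per the submitters' processing notes (background correction, normalization and probe summary; version and further settings are not given in the sources used here). Each deposited intensity column has a median of 1, so the authors' table expresses a probe set relative to its array's median; a change shared by most genes cannot be seen on that scale. No detection calls or scan batches were used here.

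Control probe sets (120) were left out, which left 15491. Intensities were log2 transformed without a pseudocount. Probe sets with log2 of at least 0 on at least 3 of the 9 arrays were fitted with limma 3.58.1 (R 4.3.3; lmFit and eBayes with an intensity trend), group as the only term, and Benjamini-Hochberg adjustment over 8123. In each of 20 simulated data sets of 8123 probe sets, 200 were changed, by log2 1 or 2. The limma fit found 78.6% of changes of log2 1 and 97.8% of log2 2, and 4.63% of its calls were false. The simulated noise was independent and normal, with the same spread in each group and no array that responded less. These rates therefore do not give the false share of the 892 calls. Gene symbols came from the platform annotation, updated through RefSeq (Xenopus_laevis_v10.1, names only): 9304 probe sets had 1 gene, 195 several and 5992 none. The number of arrays limits the precision.

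Members and lists were chosen with earlier results of these data known. From 28 of the 53 lists, 233 entries that a symbol pattern caught from outside the family were removed after values were seen. Named genes were the 20 largest rises and falls with separate groups, the 20 largest of each among bright probe sets, up to 15 of each among bright genes on no list, and up to 6 a direction in each list; other names were picked from their values.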

Additional observations from a re-analysis of the deposited data

Results flagged for a closer look

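For 35 of the 40 genes with the largest changes at 48 h, 20 higher and 15 lower, the level after 48 h of T3 also differed from that after 6 h in the same limma fit (adjusted p under 0.05). The genes were chosen by their values on the T3 48 h arrays, which this comparison shares, so the agreement is largely built in and is no independent support. The difference between the times, 48 h minus 6 h in log2 units, was 5.55 for mamdc2.L, 4.54 for fap.L, 4.2 for mmp13l.S, 4.18 for slc15a2.L, 3.95 for ambp.L, 3.34 for anxa1.3.S, 3.29 for anpep.L and 3.07 for krt78.6.L. It was 2.5 for mmp11.L, 2.26 for dpp4.S, 2.25 for glb1.L, 2.2 for tgm2.S, 2.1 for atg16l1.L, 1.83 for mmp13l.L and 1.78 for mfge8.S. The smallest among the rises were 1.63 for mmp9.2.L, 1.57 for XB5740036.L, 1.51 for ras-dva1.L, 1.46 for dio3.L and 1.14 for LOC444433.

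Among the falls the difference was -3.67 for LOC398308, -3.47 for krt12.4.S, -3.46 for thdl17.L, -3.45 for LOC100126633, -3.12 for thdl18.S, -2.66 for fucolectin.S, -2.65 for otogl2.L and -2.63 for krt12.4.L. It was -1.96 for col9a1.L, -1.89 for lgals3.L and atp12a.L, -1.83 for col2a1.S, -1.79 for ag1.L, -1.75 for MGC84752 and -1.65 for ppp1r13l.L. In 14 of the genes the 6 h estimate had the opposite sign. Over all tested probe sets 19.4% differed between the times, and the 6 h tails also differed in time in the container.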

How the results depend on the processing

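The 892 calls became 494 with the 6 arrays alone, 1979 with array weights, 121 with a level filter of log2 4 and 256 to 1912 when 1 array was left out. The 270 changes of at least 2-fold became 39 under the filter of log2 4, 121 with a pseudocount of 1 and 160 to 464 without 1 array. The 113 bright calls became 58 with 6 arrays, 301 with array weights, 68 without a filter and 33 to 301 without 1 array. Fewer arrays or probe sets enter some of these fits; for array weights and the pseudocount the cause was not tested. Without a filter 605 were called, and the other settings stayed within 1.5 times. Centring gave 480 higher and 410 lower, quantile normalization 429 and 436.

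Same-numbered deviations correlated at -0.133 to 0.103 over all groups, and at 0.103, 0.047 and 0.094 between vehicle and T3 48 h arrays. Differently numbered vehicle and T3 48 h arrays gave -0.178 to 0.115. With 3 arrays a group these values cannot decide whether replicate numbers pair the arrays. With the replicate block 700 were called, 258 by at least 2-fold and 86 bright, and 62 named calls were lost.

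Of 265 named calls 62 were kept without any 1 array, and no called gene turned direction. Uncalled genes that turned were pax3.L, at -0.03 with array weights, rarg.S, from -0.08 to 0.13 over the omissions (-0.08 on omitting vehicle array 1, -0.05 on omitting T3 48 h array 3), and chrna1.2.L, from -0.35 to 0.06 (0.06 on omitting vehicle array 1).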
